A study of Mus musculus with 24 samples.

Results

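Eosinophil granule proteins and ribonucleases are represented here by 8 genes: Prg2, Epx, Ear1, Ear2, Ear6, Ear10, Rnase2a and Siglecf. They were taken by symbol from a table of transcript abundances with 55291 gene symbols, and were chosen by earlier TPM values of these same samples, in which several of them were far higher in cells of the mouse strain PWD. The differences between PWD and the other strains are therefore given as a description, without a test. The samples were dendritic cells grown from mouse bone marrow for 7 days with 20 ng/ml of the growth factor GM-CSF, which all groups received. Groups were the strains B6, C57 and PWD, each untreated or stimulated for 6 h with 10 ng/ml of lipopolysaccharide (LPS) from E. coli 0111:B4, a bacterial cell wall component. Each of the 6 groups had 4 libraries of bulk RNA. The sources give 4 individual mice with independent cultures for each genotype. PWD mice are inbred and go back to wild-caught Mus musculus musculus, a subspecies other than that of most laboratory strains. What sets the strain labelled C57 apart from B6, and the age and sex of the mice, are not stated in these sources. Libraries with one number in the untreated and LPS groups of a strain are taken as cultures of one mouse and called by that number.

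Eosinophils are granulocytes of the bone marrow whose large granules hold a few very cationic proteins. Prg2 encodes major basic protein, the crystalline core of the granule, and Epx encodes eosinophil peroxidase, a heme enzyme. The eosinophil-associated ribonucleases, the Ear genes and Rnase2a, are secreted members of the RNase A superfamily that have multiplied in rodents. Siglecf encodes a sialic acid-binding receptor on the surface of mouse eosinophils and alveolar macrophages, and Ear1 and Ear2 are also known from alveolar macrophages. GM-CSF is a growth factor for eosinophils and alveolar macrophages as well as for dendritic cells. The cultures were not sorted as far as the labels say, and in bulk RNA fewer cells of a type and less RNA per cell cannot be told apart.

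Values are TPM, the unit of relative transcript abundance, a level scaled for transcript length and for the total of each library. The 24 libraries all sum to 1000000, so their sequencing depth is unknown. Levels below about 1 TPM carry an unknown counting error. Structural RNA took 28.8 to 44.2% of TPM, and 10731 to 12663 genes reached 1 TPM in a library. In each group the mice numbered 1 and 2 had at most 0.0901 TPM of Xist, the RNA that silences an X chromosome in females, and those numbered 3 and 4 had at least 41.9 TPM, so results are also given for each pair of mice where they differ. The summed level of 15 dendritic cell genes was 3530 to 13000 TPM over the groups, carried mostly by Cd74 and the class II H2 genes, and Itgax, which encodes CD11c, had group means of 238 to 340 TPM. Markers of conventional dendritic cells differed in level. Flt3 was at most 0.708 TPM, Xcr1 at most 0.227 TPM and Clec9a at most 1.64 TPM in any library. Cd209a reached 4.16 TPM, Zbtb46 16.4 TPM, Batf3 31.3 TPM, Irf8 96.3 TPM and Irf4 108 TPM in the highest library of each. The summed level of 7 lymphocyte genes was at most 6.22 TPM.

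The genes lie on 4 chromosomes of the mouse genome (mm10, GENCODE M21 annotation). Prg2 is at chr2:84980461-84983632, next to its relative Prg3 at chr2:84988215-84993886. Epx is at chr11:87864000-87875536 and Siglecf at chr7:43351341-43359531. The ribonuclease genes lie in separate stretches of chromosome 14. One holds Ear1 at chr14:43818765-43875517, Ear10 at chr14:43922720-43923559 and Ear2 at chr14:44102654-44103534, and the other Rnase2a at chr14:51255262-51256112 and Ear6 at chr14:51853699-51854643. All 8 are protein-coding genes.

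The ribonuclease genes are close copies, which bears on how far their values can be read one by one. The first 120 coding bases of the longest open reading frame of each are shown from the start codon, in the reference genome, with the bases that differ from Ear2 in capitals.
Ear2: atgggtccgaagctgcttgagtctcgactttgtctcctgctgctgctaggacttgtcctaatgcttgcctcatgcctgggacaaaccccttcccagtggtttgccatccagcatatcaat
Ear10: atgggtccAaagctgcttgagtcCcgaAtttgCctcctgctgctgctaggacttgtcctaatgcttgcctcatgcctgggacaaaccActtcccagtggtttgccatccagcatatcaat
Ear1: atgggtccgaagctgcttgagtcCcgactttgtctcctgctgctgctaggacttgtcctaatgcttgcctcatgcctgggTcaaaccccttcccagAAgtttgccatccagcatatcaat
Ear6: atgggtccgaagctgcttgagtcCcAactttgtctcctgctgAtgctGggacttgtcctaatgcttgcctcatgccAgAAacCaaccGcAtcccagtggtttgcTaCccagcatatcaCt
Rnase2a: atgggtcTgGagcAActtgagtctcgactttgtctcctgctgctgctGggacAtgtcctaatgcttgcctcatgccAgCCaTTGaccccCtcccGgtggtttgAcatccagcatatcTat
Over the whole reading frame, of 468 or 471 bases, Ear2 and Ear10 were 97% identical, Ear1 and Ear2 95.7%, Ear6 and Ear2 88.2%, and Rnase2a and Ear2 80.3%. The signal peptide part at the start is nearly shared, and Rnase2a carries 16 differences from Ear2 in this stretch and Ear6 carries 13, against 5 in Ear10 and 4 in Ear1. Of all stretches of 50 bases in the annotated transcripts, 42.6% were found in no other gene for Ear1 and 58.5% for Ear2. For Ear1, 41.4% were shared with the pseudogene Ear-ps9, and for Ear2, 26% with Ear10. Rnase2a, Prg2 and Epx had no shared stretch of that length, and for Ear6 and Siglecf 99% and 99.8% were their own. No label or header names the read length or the rule for reads with several matches. How reads were divided between Ear1, Ear2, Ear10 and Ear-ps9 was not tested, nor was the assignment of PWD reads to the reference copies, so the values of Ear1 and Ear2 are uncertain in that respect.

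The sequences upstream of the ribonuclease genes are as alike as their coding parts. The stretches from 230 to 71 bases before the RefSeq start are shown, since they hold the one motif among 6 searched that several of these genes share (GRCm38.p6, 5′ to 3′ on the gene's strand). The RefSeq start of Ear1 lies inside the GENCODE span of the gene given above, so its stretch is also inside that span. That of Ear6 lies inside its GENCODE span as well. Capitals mark TTGCNNAA, a core recognised by C/EBP factors. Ear2 is at chr14:44102424-44102583, plus strand; Ear1 at chr14:43819710-43819869, minus strand; Ear10 at chr14:43923667-43923826, minus strand; Ear6 at chr14:51853538-51853697, plus strand; Rnase2a at chr14:51256183-51256342, minus strand.
Ear2: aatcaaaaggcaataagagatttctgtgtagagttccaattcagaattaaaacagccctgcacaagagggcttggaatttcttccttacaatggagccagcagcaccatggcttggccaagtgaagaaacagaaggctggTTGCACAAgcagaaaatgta
Ear1: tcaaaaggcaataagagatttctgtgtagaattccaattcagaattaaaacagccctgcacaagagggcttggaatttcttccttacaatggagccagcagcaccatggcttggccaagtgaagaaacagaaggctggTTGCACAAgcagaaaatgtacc
Ear10: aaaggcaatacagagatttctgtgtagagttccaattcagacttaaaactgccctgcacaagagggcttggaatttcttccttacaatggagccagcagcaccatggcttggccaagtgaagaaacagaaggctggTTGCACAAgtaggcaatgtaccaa
Ear6: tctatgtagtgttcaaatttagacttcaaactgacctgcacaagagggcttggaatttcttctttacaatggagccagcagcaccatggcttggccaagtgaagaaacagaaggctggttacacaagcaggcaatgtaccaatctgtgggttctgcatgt
Rnase2a: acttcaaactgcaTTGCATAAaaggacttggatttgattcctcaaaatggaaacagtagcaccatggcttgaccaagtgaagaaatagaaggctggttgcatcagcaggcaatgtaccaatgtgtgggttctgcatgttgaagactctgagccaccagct
Within 250 bases before the start, Ear1 and Ear2 were 99.2% identical over 248 aligned bases, Ear2 and Ear10 94.3%, Ear2 and Ear6 93%, and Ear2 and Rnase2a 86.4%. TTGCACAA stood 92, 90 and 94 bases before the start of Ear1, Ear2 and Ear10, and TTGCATAA 217 bases before that of Rnase2a. On either strand the motif was found in 4 of 7 member windows of 250 bases and in 9.56% of all 32851 such windows. The windows of Ear1, Ear2 and Ear10 are at least 93.9% identical, so their 3 matches are not separate occurrences, and that of Ear6 held none. Windows were found for 7 of the 8 genes, Prg2 being the exception. Neither AGATAA nor TGATAA, letters bound by GATA factors, occurred in a member window, against 16.6% of all windows. TTCNNNGAA and TGANTCA, the letters of STAT and AP-1 sites, were also in none, against 7.02% and 6.75%. GAGGAA, a core for ETS factors, was in 2, against 23.3%. Of these windows that of Epx alone held TATAAA, found in 12.4% of all windows, 24 bases before the start. The last 100 bases before the start of Epx, at chr11:87875537-87875636, minus strand, are shown with it in capitals.
Epx: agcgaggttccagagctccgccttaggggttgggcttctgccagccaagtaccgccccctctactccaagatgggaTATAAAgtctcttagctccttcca
Every match here is a description of letters, not of a bound site.

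Major basic protein and eosinophil peroxidase RNA were at low levels in B6 and C57 and far higher in PWD. Untreated PWD cells held 166, 141, 74.3 and 137 TPM of Prg2 in mice 1 to 4. Untreated B6 cells held 1.88, 1.09, 0.658 and 3.01 TPM of Prg2, and untreated C57 cells 3.79, 1.09, 3.08 and 6.96 TPM. No PWD library overlapped with a library of another strain, while B6 and C57 overlapped. With LPS, Prg2 was at 166, 145, 63 and 106 TPM in PWD, 0.793, 1.97, 1.94 and 1.32 TPM in B6, and 4.1, 0.821, 3.64 and 7.76 TPM in C57. The order of the strains was the same in both treatments, and mouse 3 was the lowest of the PWD mice in each. Mean levels were 130 ± 39.1 TPM in untreated PWD, 3.73 ± 2.44 TPM in C57 and 1.66 ± 1.03 TPM in B6 (SD, n = 4). The PWD mean was 34.7 times that of C57 and 78 times that of B6.

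Epx followed Prg2 at a lower level. In untreated PWD cells it stood at 28, 26.7, 18.3 and 33.4 TPM, and with LPS at 27.6, 28.9, 17.2 and 23.6 TPM. In the 16 libraries of B6 and C57 it stayed below 1 TPM, with a highest value of 0.787 TPM. Epx thus entered the set of genes tested only through its 8 PWD libraries. Mean levels untreated were 26.6 ± 6.21 TPM in PWD, 0.565 ± 0.198 TPM in C57 and 0.179 ± 0.065 TPM in B6 (SD, n = 4). The PWD mean was 47.1 times that of C57 and 148 times that of B6, ratios whose size rests on levels below 1 TPM. Mouse 3 was again the lowest in both PWD groups. Of the other heme peroxidases, Mpo, the myeloperoxidase of neutrophils, was at most 1.64 TPM in any library, and Lpo, the lactoperoxidase of secretions, was at most 0.0228 TPM.

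**Figure D1:**
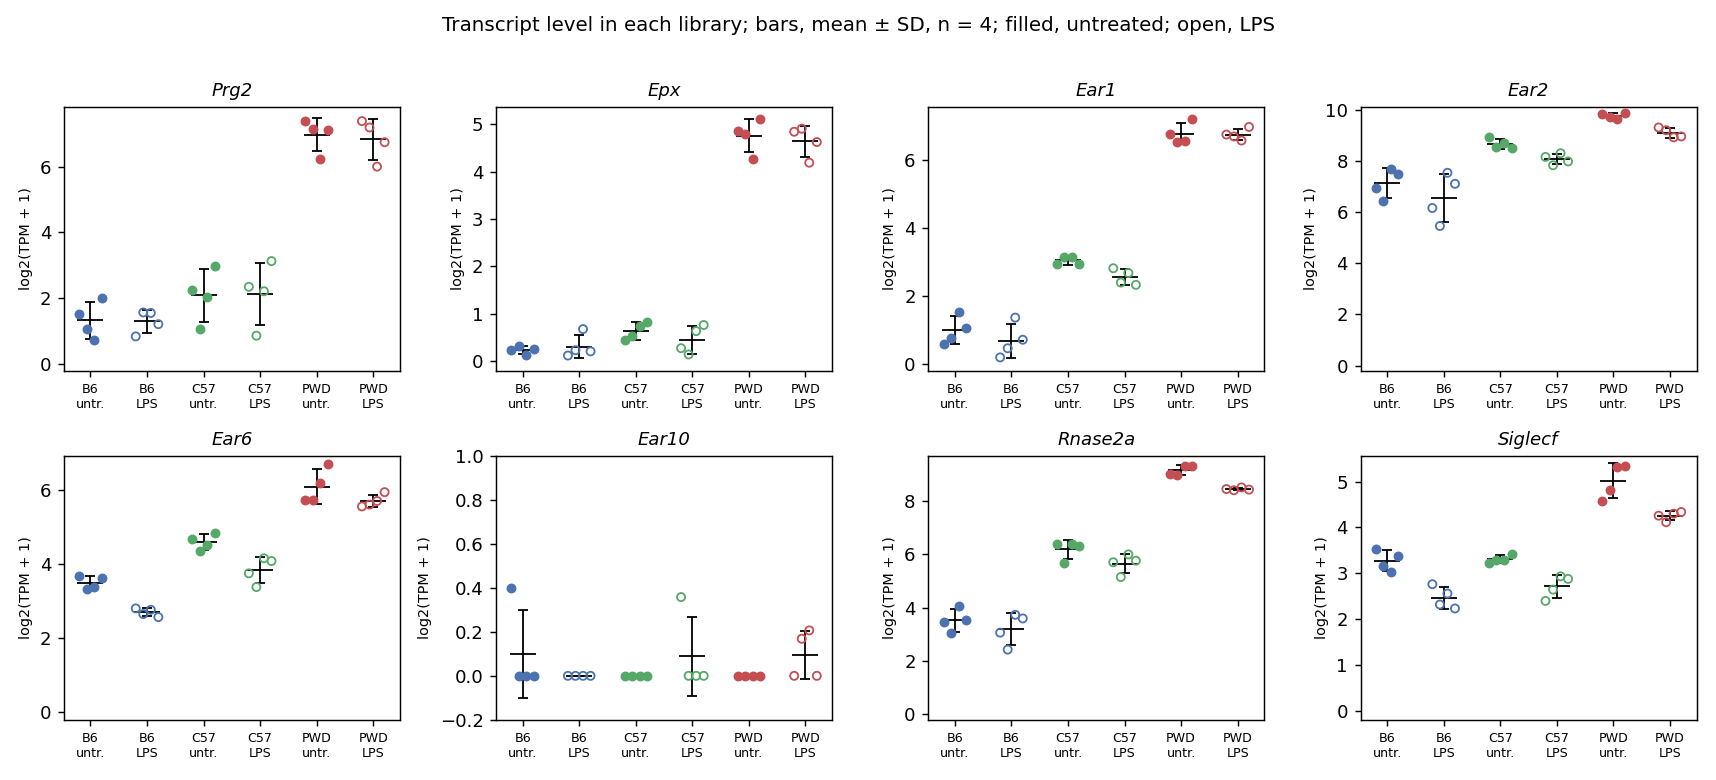
Level of each of the 8 genes in each of the 24 libraries, as log2(TPM + 1), by strain and treatment (points from left to right in a group are mice 1 to 4; filled points untreated, open points LPS; bars mean ± SD on that scale, n = 4). Prg2 and Epx stand apart in the 8 PWD libraries, Ear1 and Rnase2a step up from B6 to C57 to PWD, and Ear10 is at 0 in 20 libraries.

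Among the ribonucleases, Ear2 was the most abundant in every group and the only one already high in B6. Untreated B6 cells held 121, 85.8, 207 and 179 TPM of Ear2, C57 cells 495, 372, 411 and 366 TPM, and PWD cells 913, 845, 792 and 947 TPM. With LPS these were 70.6, 43, 185 and 137 TPM in B6, 285, 227, 315 and 252 TPM in C57, and 634, 588, 485 and 497 TPM in PWD. The order in both treatments was PWD, C57, B6, with no overlap between neighbours. In B6 the mice numbered 1 and 2 were below those numbered 3 and 4 in both treatments. The PWD mean was 2.13 times that of C57 and 5.91 times that of B6 without treatment.

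Rnase2a had the same order of strains with much wider steps. It stood at 9.97, 7.26, 15.9 and 10.6 TPM in untreated B6, 83, 49.8, 81.7 and 78.3 TPM in C57, and 518, 503, 629 and 640 TPM in PWD. With LPS it stood at 7.37, 4.39, 12.3 and 11.1 TPM in B6, 51.1, 34.5, 62.9 and 53.3 TPM in C57, and 348, 337, 363 and 343 TPM in PWD. No 2 strains overlapped in either treatment. The untreated PWD mean of 573 ± 72 TPM was 7.82 times that of C57, 73.2 ± 15.7 TPM, and 52.3 times that of B6, 10.9 ± 3.61 TPM (SD, n = 4). Rnase2a has no stretch of 50 bases in common with another annotated gene of the reference, while how PWD reads were assigned was not tested.

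Ear1 was close to absent in B6 and reached the level of Prg2 in PWD. Untreated B6 cells held 0.506, 0.688, 1.9 and 1.1 TPM, C57 cells 6.64, 7.77, 7.92 and 6.68 TPM, and PWD cells 107, 91.2, 93.8 and 146 TPM. With LPS, B6 cells held 0.142, 0.376, 1.57 and 0.637 TPM, C57 cells 6.02, 4.25, 5.38 and 4.01 TPM, and PWD cells 106, 102, 93.7 and 124 TPM. The strains again did not overlap. Ear-ps9, the pseudogene with which Ear1 shares most sequence, was listed at 0 in all 16 libraries of B6 and C57 and at 1.2 to 5.28 TPM in all 8 of PWD.

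Ear6 was intermediate. It stood at 11.9, 9.05, 9.4 and 11.4 TPM in untreated B6, 24.7, 19.4, 21.8 and 27.5 TPM in C57, and 52.2, 52.5, 72.9 and 104 TPM in PWD. With LPS it stood at 6, 5.3, 5.82 and 4.95 TPM in B6, 12.5, 9.44, 16.9 and 16 TPM in C57, and 46.2, 47.9, 51.3 and 60.7 TPM in PWD. The order PWD, C57, B6 held without overlap in both treatments, and the untreated PWD mean was 3.02 times that of C57 and 6.74 times that of B6. Ear10 was at 0 in 20 of 24 libraries and at most 0.319 TPM in the others, did not pass the filter and was not tested. It shares 27.7% of its stretches of 50 bases with Ear2. Of other genes of the group, Ear14 was at 0 throughout and Rnase2b was at most 0.677 TPM.

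The makeup of the ribonuclease RNA differed between strains, a comparison within each library that does not depend on how libraries are scaled, though it does depend on how reads were divided between the copies. Summed over the Ear and Rnase2 genes without pseudogenes, the level was 171 ± 58.8 TPM in untreated B6, 515 ± 69.9 TPM in C57 and 1630 ± 148 TPM in PWD (SD, n = 4). Ear2 made up 83.4 to 88.4% of that sum in untreated B6, 76.4 to 82.8% in C57 and 49.9 to 57.4% in PWD. Rnase2a made up 5.25 to 7.05%, 11.1 to 16.4% and 32.6 to 39.6%. Ear1 made up 0.353 to 0.813%, 1.09 to 1.73% and 5.91 to 7.95%. These ranges of 4 libraries did not overlap between strains. With LPS the mean share of Ear2 was 86.1% in B6, 79.7% in C57 and 52% in PWD, and that of Ear1 in PWD was 10.1%, with a lowest value of 9.38% above the highest untreated PWD value.

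**Figure D2:**
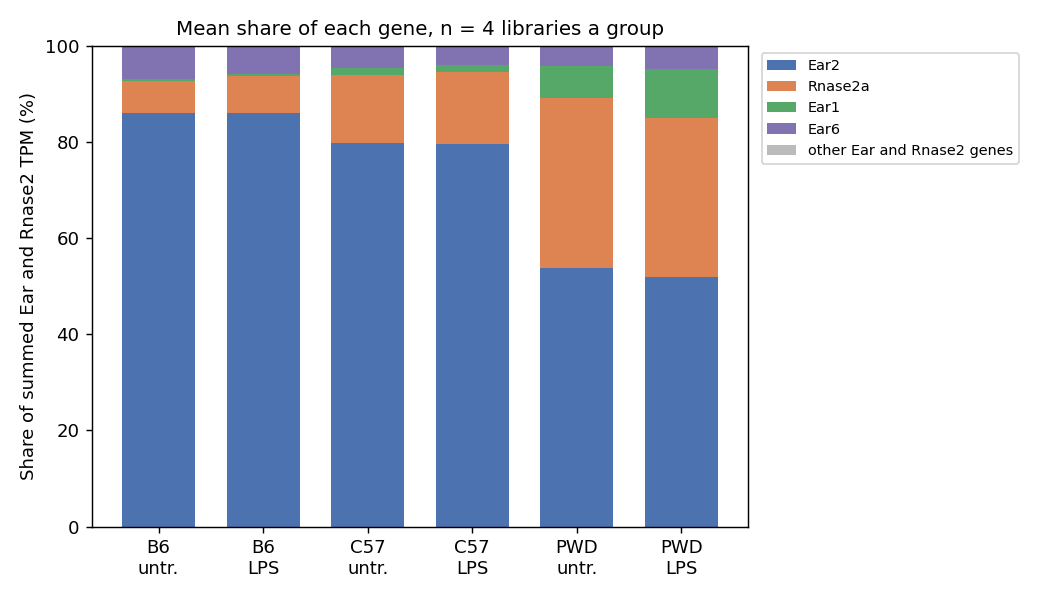
Share of each gene in the summed TPM of the Ear and Rnase2 genes, in percent, as the mean of 4 libraries for each strain and treatment. Ear2 makes up 86.1% in untreated B6 and 53.9% in untreated PWD, where Rnase2a makes up 35.2% and Ear1 6.67%.

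Siglecf, the surface receptor, had another pattern. Untreated cells held 10.6, 7.91, 7.16 and 9.4 TPM in B6, 8.29, 8.73, 8.73 and 9.75 TPM in C57, and 22.9, 27.1, 39.1 and 39.7 TPM in PWD. With LPS they held 5.77, 3.98, 4.88 and 3.69 TPM in B6, 4.26, 5.24, 6.63 and 6.34 TPM in C57, and 18.1, 16.3, 18.7 and 19.2 TPM in PWD. B6 and C57 overlapped in both treatments and PWD stood above both, with an untreated mean 3.67 times that of B6 and 3.63 times that of C57.

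All 7 measurable genes were thus higher in every PWD library than in any B6 or C57 library of the same treatment, which is what they were picked for. The share of all genes without such overlap is not given here. By another measure, limma at an adjusted p under 0.05, 37.2% of 13246 genes tested were called higher in untreated PWD than B6 cells and 20.1% higher than in C57. With LPS these shares were 49.7% and 24.4%. The member closest to the other strains was Ear2, whose lowest PWD library with LPS had 485 TPM against 315 TPM in the highest C57 library.

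C57 was compared with B6 with a test, since the genes were not picked for this difference. Of the 7 members fitted, the 4 measurable ribonucleases were higher in C57 in each treatment, while Prg2 and Siglecf were not called. Epx passed the filter only through PWD, so its test is not read. The background was 31.9% of all genes called higher without treatment and 49.1% with LPS, and the median of all genes was 0.17 and 0.29 on the log2 scale. Under median-of-ratios scaling, which sets these medians to 0, the share of called genes that were higher moved from 82.2 to 51.8% without treatment and from 83.5 to 49.8% with LPS, and the 4 ribonucleases were still called. Rnase2a differed most, by 2.65 on the scale of log2(TPM + 1) (SE 0.252, limma adjusted p = 7.92e-08) without treatment and by 2.45 (SE 0.252, adjusted p = 8.03e-08) with LPS. Ear1 differed by 2.05 (SE 0.209, limma adjusted p = 6.09e-08) and 1.87 (SE 0.209, adjusted p = 8.15e-08). Its fold in TPM was larger, 6.92 and 7.2, because the added 1 TPM shrinks differences of low values. Ear2 differed by 1.54 (SE 0.329, limma adjusted p = 0.00113) and 1.5 (SE 0.329, adjusted p = 0.000661), and Ear6 by 1.08 (SE 0.18, adjusted p = 4.21e-05) and 1.14 (SE 0.18, adjusted p = 8.13e-06). For each of the 4 genes all C57 libraries lay above all B6 libraries of the same treatment, and the share of all genes that did so is not given here. The step of Ear2 was unequal between the mice, at 2.07 without treatment for those numbered 1 and 2 and 1.01 for those numbered 3 and 4, and 2.19 and 0.82 with LPS, and it passed the test in each.

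For Prg2 the same comparison left a wide interval. Prg2 differed between C57 and B6 by 0.76 (95% interval -0.21 to 1.72, limma adjusted p = 0.207) without treatment and by 0.85 (-0.12 to 1.81, adjusted p = 0.124) with LPS. Without the C57 mouse 2 with LPS, the library with 0.821 TPM, the second value was 1.27 (limma adjusted p = 0.017). Epx was below 1 TPM in all libraries of both strains and passed the filter only through PWD, so its difference is given by its levels alone: 0.355 to 0.787 TPM in untreated C57, 0.0948 to 0.25 TPM in untreated B6, and overlapping values with LPS. Siglecf differed by 0.03 (95% interval -0.29 to 0.34, limma adjusted p = 0.912) and 0.25 (-0.07 to 0.56, adjusted p = 0.176). An interval that includes 0 does not show that the strains were alike.

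With LPS no member was called higher in any strain, and Siglecf alone was called lower in all 3. In LPS-treated cells most of the transcriptome was lower on this scale: 59.7% of genes were called lower in B6, 52.2% in C57 and 52.4% in PWD, and the median of all genes was -0.43, -0.32 and -0.32. Members called lower were 2 of 7 in B6, 3 of 7 in C57 and 2 of 7 in PWD, and the medians of the 7 were -0.32, -0.53 and -0.39. Epx is counted here and with the mouse block below, but under 1 TPM in B6 and C57 it could hardly be called there. These counts are therefore no result about the members as a set. Median-of-ratios scaling moved the share of called genes that were higher from 16.6 to 50.4% in B6, from 16.6 to 49.6% in C57 and from 17.4 to 50.7% in PWD. With each mouse as a block, which compares the 2 cultures of a mouse, 5, 5 and 4 of 7 members were called lower, against 59.9, 52.5 and 52.5% of all genes in that fit, and these calls are given with each gene. The block and the counts of mice below rest on pairing by number. For mice 3 and 4 of B6 the library of the same number was not the best match.

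Siglecf was lower with LPS in all 3 strains and in 12 of 12 mice. It fell by 0.81 in B6 (SE 0.154, limma adjusted p = 4.31e-05), by 0.59 in C57 (SE 0.154, adjusted p = 0.00177) and by 0.76 in PWD (SE 0.154, adjusted p = 0.000129). Its mean TPM was 1.91, 1.58 and 1.78-fold lower with LPS, and the treated libraries lay below the untreated ones in each strain. Relative to the median of all genes, under median-of-ratios scaling, the values were -0.33, -0.26 and -0.40 (limma adjusted p = 0.00942, 0.0447 and 0.00302). Under quantile normalization they were -0.20 (adjusted p = 0.107), -0.20 (adjusted p = 0.126) and -0.51 (adjusted p = 0.000293).

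Ear6 was also lower in 12 of 12 mice. It fell by 0.81 in B6 (SE 0.18, limma adjusted p = 0.000328) and by 0.75 in C57 (SE 0.18, adjusted p = 0.000989). In PWD its value was -0.39 (SE 0.18, adjusted p = 0.0605), and with the mouse block -0.39 with an adjusted p of 0.00898. Under median-of-ratios scaling the 3 values were -0.32, -0.39 and -0.02 (limma adjusted p = 0.0398, 0.0153 and 0.935).

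Ear2 had values of -0.57 in B6, -0.61 in C57 and -0.67 in PWD, which did not pass the test (SE 0.329, limma adjusted p = 0.129, 0.118 and 0.0834). It was nevertheless below its untreated culture in 12 of 12 mice, and with the mouse block the same differences had adjusted p-values of 0.000165, 0.000147 and 4.87e-05. In C57 and PWD the treated and untreated libraries did not overlap, while in B6 the spread between mice was larger than the step. Under median-of-ratios scaling the values were -0.01, -0.23 and -0.29 (limma adjusted p = 0.981, 0.608 and 0.506).

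Rnase2a fell by 0.71 in PWD (SE 0.252, limma adjusted p = 0.0192), a change of 1.65-fold in mean TPM with no overlap. Its adjusted p was 0.0529 without the untreated PWD mouse 4, and the value was -0.33 (adjusted p = 0.291) under median-of-ratios scaling. In B6 and C57 it had -0.32 (SE 0.252, limma adjusted p = 0.26) and -0.53 (SE 0.252, adjusted p = 0.0736), and with the mouse block adjusted p-values of 0.00743 and 0.000173. Ear1 fell by 0.49 in C57 (SE 0.209, limma adjusted p = 0.0451), and this call was lost without any of the 4 untreated C57 libraries or the LPS-treated mice 2 and 4 (adjusted p = 0.0551 to 0.118). In B6 and PWD it had -0.31 (adjusted p = 0.194) and -0.02 (adjusted p = 0.94), and with the mouse block the B6 value had an adjusted p of 0.0163. In C57 the treated libraries of Ear1 lay below the untreated ones, while in PWD they overlapped.

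The granule proteins were not called for LPS in any strain. For Prg2 the LPS difference was -0.04 in B6 (95% interval -1 to 0.93), 0.05 in C57 (-0.91 to 1.02) and -0.14 in PWD (-1.1 to 0.83), with limma adjusted p = 0.954, 0.933 and 0.811. For Epx it was -0.12 in PWD (-0.48 to 0.24, limma adjusted p = 0.564), and in B6 and C57, where it stayed below 1 TPM, its difference on this scale is near 0 by construction and is not read. The mouse block changed none of these calls. In PWD treated and untreated libraries overlapped for both genes. The interval of Epx in PWD reaches from a 0.48 fall to a 0.24 rise on the log2 scale, so a change the size of that of Siglecf lies outside it, while the interval of Prg2 includes one.

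**Figure D3:**
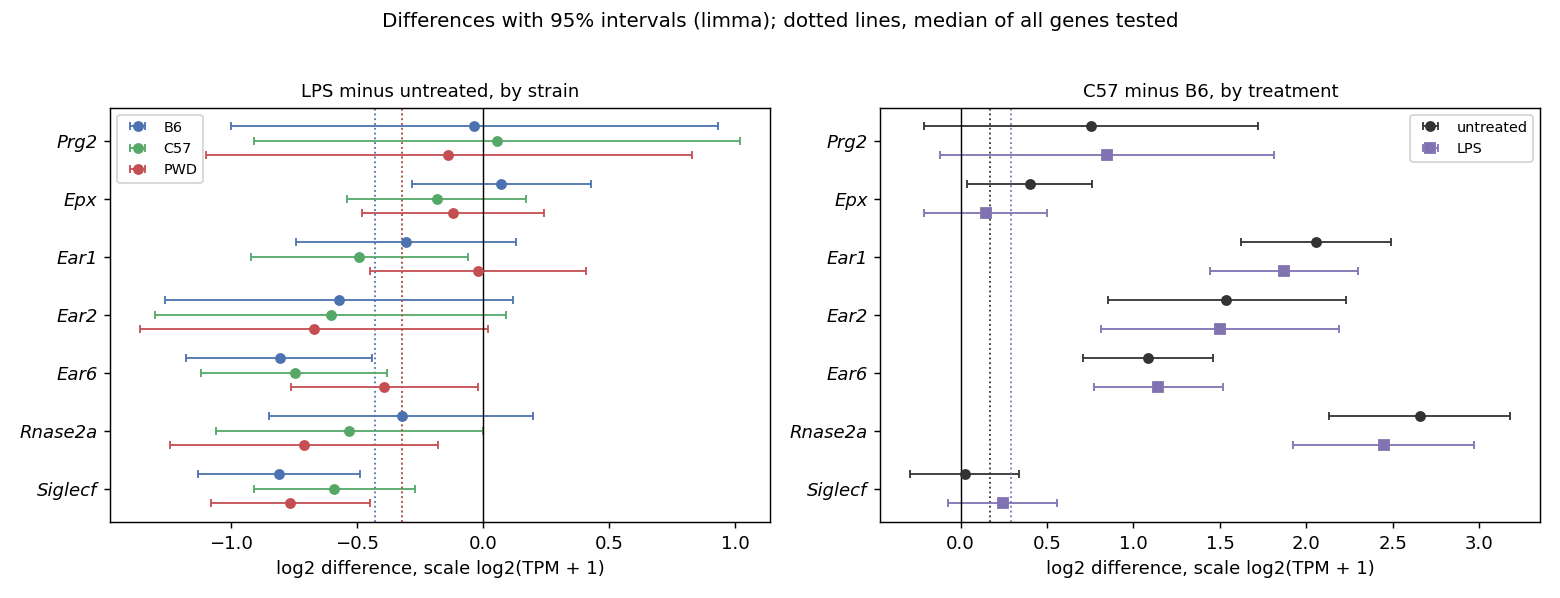
Differences on the scale of log2(TPM + 1) with 95% intervals from limma for the 7 members tested; left, LPS minus untreated in each strain; right, C57 minus B6 in each treatment; dotted lines mark the median of all genes. Siglecf lies left of 0 in all 3 strains, and Ear1, Ear2, Ear6 and Rnase2a lie right of 0 in C57 minus B6. Epx is drawn but not read for B6 and C57, where it stayed below 1 TPM.

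Whether the LPS response differed between strains was tested with an interaction term. None of the 7 members was called in any of the 3 pairs of strains with limma, where 23.5% of all genes were called for PWD against B6, 14.3% for C57 against B6 and 11.4% for PWD against C57. None reached an unadjusted p under 0.05 either. Epx is counted among the 7, but its change in B6 and C57 is near 0 by construction, so its terms are not read. The values ran from -0.39 for Rnase2a in PWD against B6 (95% interval -1.13 to 0.36) to 0.47 for Ear1 in PWD against C57 (-0.14 to 1.08). Ear6 was called for PWD against B6 after structural RNA was taken out of the totals (0.52, limma adjusted p = 0.0413) and without the untreated PWD mouse 4 (0.62, adjusted p = 0.0356), and for PWD against C57 with the mice numbered 1 and 2 alone (0.80, adjusted p = 0.0313). Rnase2a was called in the other direction for PWD against B6 with the mice numbered 3 and 4 alone (-0.70, limma adjusted p = 0.0367). The mouse block gave 0 calls in each pair.

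The other genes of the RNase A family did not follow the members in PWD. Of 12 in the table, 5 were tested, among them Rnase4 and Ang, which cleave RNA in blood and tissue, and Rnase6. Both counts take in Rnh1, the intracellular inhibitor of these enzymes, which is not itself a gene of the family. In untreated PWD cells 1 was higher and 2 were lower than in B6, where 37.2 and 19.7% of all genes were: Rnh1 rose by 0.42 (SE 0.096, limma adjusted p = 0.000553), Rnase6 fell by 1.11 (SE 0.188, adjusted p = 1.79e-05) and Ang fell by 1.03 (SE 0.152, adjusted p = 1.65e-06). Against C57 none was higher and 3 were lower, where 20.1 and 26.2% of all genes were. With LPS 4 of 5 were lower in each strain and 1 higher in B6 and C57 (Rnase10, by 1.46 and 1.17), against a background of 59.7, 52.2 and 52.4%. Under median-of-ratios scaling it was 3 of 5, where 4031, 3403 and 3468 of all genes tested were lower. Rnase6 fell by 1.42, 1.12 and 1.69 in B6, C57 and PWD, Rnase4 by 0.91, 0.87 and 0.93, and Rnh1 by 0.81, 0.82 and 0.79.

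Other genes known from eosinophils were mostly higher in PWD. Of 19 that passed the filter, Prg3, Ccr3 and Gata1 did so only through their PWD libraries and are described without a test. Of the other 16, 11 were higher and 1 was lower in untreated PWD than B6 cells, against 37.2 and 19.7% of all genes, and 9 were higher and none lower than in C57, against 20.1 and 26.2%. With LPS 9 were higher and 1 lower than in B6, and 10 higher and 1 lower than in C57, against 49.7 and 24.4% of all genes higher. Of 13246 genes tested, 2511 and 3943 were lower in these comparisons. The share higher than in B6 with LPS was not far from that of all genes and is no result about the list. Under median-of-ratios scaling counts were made over all 19 only, so the numbers higher are not set beside those of the 16. In that scaling 5 of the 19 were lower against B6 and 0 against C57 without treatment, where 4007 and 3714 of all genes tested were. That scaling moved the share of called genes that were higher from 65.3 to 50.9% for PWD against B6 without treatment and from 72.4 to 50.9% with LPS. The members and these lists were assembled with the strain difference known, so the counts describe it and do not test it afresh.

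Alox15, the lipoxygenase of eosinophils, rose most in this list, from 1.37 ± 0.475 TPM in untreated B6 to 40.9 ± 15.3 TPM in PWD (SD, n = 4; log2 difference 4.09, SE 0.3, limma adjusted p = 1.34e-10). Prg3, a relative and neighbour of Prg2, had a mean of 0.0232 TPM in untreated B6 and 7.48 ± 2.6 TPM in PWD, and at most 0.503 TPM in any B6 or C57 library. Cebpe, a transcription factor of granulocyte maturation, rose from 4.42 ± 0.827 to 36.2 ± 10.1 TPM (log2 difference 2.75, SE 0.162, limma adjusted p = 3.89e-14). Ccr3, the receptor for eotaxins, had means of 0.351 ± 0.135 and 7.44 ± 3.32 TPM (SD, n = 4). Gata2 was the one gene of the list that was lower, at 1.18 ± 0.285 TPM against 2.76 ± 1.31 TPM (log2 difference -0.72, limma adjusted p = 0.00472). Gata1, named here after its value was seen, as the factor that starts the eosinophil lineage, stood at 1.69 to 3.67 TPM in untreated PWD and at most 0.202 TPM in untreated B6. Il5ra, the receptor subunit for the main eosinophil growth factor, was at most 0.653 TPM in any of the 24 libraries and did not pass the filter.

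Within PWD these genes did not all follow Prg2 and Epx from mouse to mouse. Prg3 stood at 10.6, 7.01, 4.33 and 7.95 TPM in untreated PWD mice 1 to 4 and at 8.84, 7.22, 1.91 and 5.1 TPM with LPS, lowest in mouse 3 in both, as were Prg2 and Epx. Ccr3 stood at 4.25, 4.94, 9.77 and 10.8 TPM untreated and at 3.45, 4.3, 6.06 and 5.79 TPM with LPS, higher in mice 3 and 4 than in mice 1 and 2. Alox15 had the same split, with 28.5, 27.3, 49.9 and 57.7 TPM untreated. Cebpe stood at 25.5, 29.7, 45.1 and 44.4 TPM untreated. Siglecf and Rnase2a, above, were also higher in untreated PWD mice 3 and 4 than in 1 and 2. This division of the mice is also that of Xist, and in untreated PWD libraries that of structural RNA, which took 41.9 and 40.3% of TPM in mice 1 and 2 and 29.3 and 28.8% in mice 3 and 4. Its part in these differences was not tested.

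**Figure D4:**
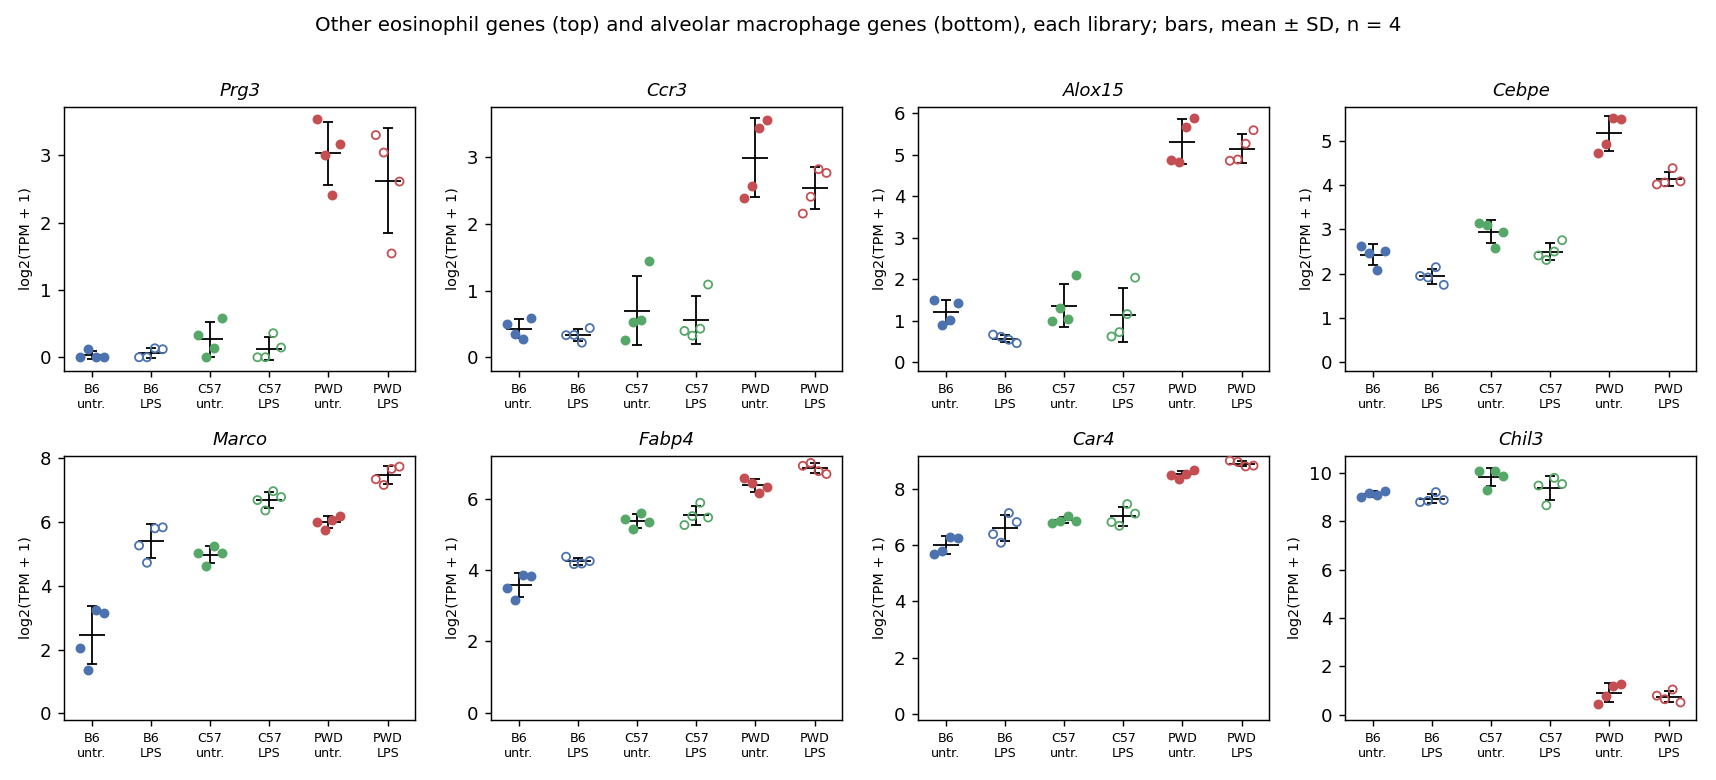
Level in each library, as log2(TPM + 1), of 4 other eosinophil genes (top) and 4 alveolar macrophage genes (bottom), by strain and treatment (points from left to right in a group are mice 1 to 4; filled points untreated, open points LPS; bars mean ± SD on that scale, n = 4). Prg3, Ccr3, Alox15 and Cebpe are highest in PWD, Fabp4 rises from B6 to C57 to PWD, and Chil3 is near 0 in PWD.

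In C57 the other eosinophil genes moved in both directions. Of the 16 without Prg3, Ccr3 and Gata1, 5 were higher and 4 lower than in B6 without treatment, against 31.9 and 6.92% of all genes. With LPS 6 were higher and 3 lower, against 49.1% of all genes higher. The median over all 19 was 0.15 without treatment and 0.19 with LPS, against 0.17 and 0.29 for all genes. Under median-of-ratios scaling 4 of the 19 were higher and 7 lower in each treatment. Of all genes tested, 2717 were higher and 2533 lower in that scaling without treatment, and 3768 and 3802 with LPS. Alox5 rose by 0.88, Zfpm1 by 0.86 and Adgre4 by 0.78, and Ltc4s, the synthase of leukotriene C, fell by 0.54 without treatment (limma adjusted p = 5.88e-06, 0.00124, 0.0106 and 0.00213). Alox15 stood at 1.71 ± 1.09 TPM and Ccr3 at 0.706 ± 0.686 TPM in untreated C57 (SD, n = 4).

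Alveolar macrophages are the other cell type known for Siglecf, Ear1 and Ear2. Of 14 of their genes tested, Krt79 passed the filter only through PWD and is left out of these counts. Of the other 13, 10 were higher and 1 lower in untreated PWD than B6 cells, against 37.2 and 19.7% of all genes. In C57 11 were higher and 1 lower than in B6, against 31.9 and 6.92%, and with LPS 8 were higher and none lower, against 49.1% of all genes higher. With Krt79 counted in, median-of-ratios scaling gave 10 and 1, 8 and 1, and 7 and 3. Over all genes tested it gave 4152 and 4007, 2717 and 2533, and 3768 and 3802. Marco, a scavenger receptor, rose from 5.26 ± 3.4 TPM in untreated B6 to 31 ± 5.56 TPM in C57 and 63.3 ± 8.52 TPM in PWD (SD, n = 4; log2 differences from B6 of 2.53 and 3.54, limma adjusted p = 6.23e-06 and 1.46e-08). Fabp4, a fatty acid-binding protein, rose from 11.3 ± 2.73 to 40.9 ± 5.38 and 83.3 ± 10.5 TPM (log2 differences of 1.78 and 2.79, limma adjusted p = 1.86e-10 and 9.84e-16). Car4, a membrane carbonic anhydrase, rose by 2.50 in PWD (SE 0.184, limma adjusted p = 4.74e-11). Chil3, a chitinase-like protein, was the one lower in untreated PWD, at 0.948 ± 0.492 TPM against 556 ± 44.8 TPM in B6. Summed over 15 genes the level was 2640 to 3370 TPM in untreated B6, 3500 to 4280 TPM in C57 and 3180 to 4170 TPM in PWD. The part of this cell type in the levels of the ribonucleases and Siglecf was not tested.

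Genes of neutrophils and their precursors were higher in C57 as well. Of 14 tested, 12 were higher and none lower in untreated C57 than B6, against 31.9 and 6.92% of all genes, with Ltf rising by 2.78 and Camp by 1.35 (limma adjusted p = 3.65e-05 and 0.00238), and the sum over 14 genes was 1930 to 2190 TPM in B6 and 2790 to 4500 TPM in C57. With the mice numbered 1 and 2 alone 5 were higher, and with those numbered 3 and 4 alone 13. The share of all genes called higher in each of these smaller fits is not given here. The 2 counts are therefore not read as a difference between the mice. In PWD 7 were higher and 4 lower than in B6, against 37.2 and 19.7%. Camp rose from a mean of 0.74 TPM in untreated B6 to 40.6 TPM in PWD, a log2 difference of 4.55. Ltf rose by 2.26 and Retnlg by 1.93, and S100a8 fell by 1.42 (limma adjusted p = 1.245e-10 for Camp, then 0.000128, 1.13e-07 and 7.93e-08). Mast cells and basophils also arise in bone marrow cultures. Of 5 of their genes tested, 3 were higher and 1 lower in untreated C57 than B6, against 31.9 and 6.92% of all genes. In PWD 1 was higher and 1 lower, against 37.2 and 19.7%. The sum over 12 genes was 11.4 to 13.2 TPM in B6, 12.5 to 31 TPM in C57 and 6.02 to 11 TPM in PWD. Of 13 dendritic cell genes tested, 11 were lower in untreated C57 and 12 in PWD than in B6, against 6.92 and 19.7% of all genes. None was higher in either. The sum over all 15 genes of that list was 9720 to 13000 TPM in B6, 3690 to 4880 TPM in C57 and 3980 to 6920 TPM in PWD. The share of the members' differences that goes with such changes was not tested.

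Of 7 growth factors and attractants of eosinophils, 4 were tested. In untreated PWD cells 3 were higher and 1 lower than in B6, against 37.2 and 19.7% of all genes. Against C57 2 were higher and 2 lower, where 20.1 and 26.2% of all genes were. Ccl5, a chemokine, changed most against B6. It was lower in PWD, at 6.57 ± 1.96 TPM against 204 ± 32.1 TPM in untreated B6 and 35 ± 9.57 TPM in C57 (log2 differences -4.78 and -2.24, limma adjusted p = 1.09e-16 and 2.06e-10). Ccl7 was higher than in B6 by 0.31 and lower than in C57 by a difference of -2.39 (limma adjusted p = 0.0155 and 1.29e-16). Il5, the main eosinophil growth factor, was at most 0.236 TPM, and Il3 and Ccl11 at most 0.285 and 0.118 TPM. Ccl24, a ligand of Ccr3, rose from a mean of 4.78 TPM in untreated B6 and 1.24 TPM in C57 to 62.6 TPM in PWD (log2 differences of 3.48 and 4.825, SE 0.26, limma adjusted p = 1.14e-10 and 4.51e-13). Against C57 this was the largest change of the 4 genes tested. With LPS Ccl24 fell by 1.51 in PWD (SE 0.26, limma adjusted p = 3.73e-05). Csf2, which encodes GM-CSF itself, rose with LPS by 0.38 in B6, 2.10 in C57 and 2.22 in PWD (limma adjusted p = 0.0377, 3.74e-11 and 6.91e-12). Its mean went from 0.0258 to 0.333 TPM in B6, from 0.099 to 3.77 TPM in C57 and from 0.556 to 6.37 TPM in PWD. At such levels the added 1 TPM shrinks the differences, so their order between strains is not read.

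With LPS, of the 16 other eosinophil genes without Prg3, Ccr3 and Gata1, 11 were lower and 2 higher in B6. In C57 10 were lower and 1 higher, and in PWD 7 lower and none higher. These shares lower were not far from the 59.7, 52.2 and 52.4% of all genes and are no result about the list. Under median-of-ratios scaling 5, 4 and 6 of all 19 were lower and 5, 4 and 5 higher. Over all genes tested 4031, 3403 and 3468 were lower in that scaling and 4104, 3348 and 3564 higher. Among the largest changes, Cebpa, a factor of the myeloid lineage, fell by 2.79, 1.38 and 1.98 in B6, C57 and PWD, and Il1rl1, the receptor for IL-33, by 1.84, 1.02 and 1.40 (SE 0.112 and 0.186). Cebpe had means of 36.2 TPM in untreated and 16.7 TPM in LPS-treated PWD cells, and fell by 1.04 there (SE 0.162, limma adjusted p = 5.49e-06).

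The profiles of the members over the 6 group means were compared with those of 7704 other genes that reached 10 TPM in a group, by the root mean square of the differences after each profile was centred. Among the genes closest to Prg2 were Vcp-rs at 0.30 log2 units and Eno1b at 0.41, and Epx was at 0.48. Those closest to Epx were Serpinb9g at 0.13, Hmga1b at 0.20 and Vcp-rs at 0.22. Vcp-rs, Eno1b and Hmga1b are copies of the widely used genes Vcp, Eno1 and Hmga1, and whether reads of the parent genes were counted with them was not tested. In B6 and C57 these genes had group means of at most 9.22 TPM, and in PWD of at least 18.3 TPM. The genes closest to Ear1 were Eno1b at 0.62, Vcp-rs at 0.69 and Alox15 at 0.76, while Rnase2a was at 0.48. Those closest to Rnase2a were Flvcr2 at 0.72, Arnt2 at 0.76 and Tmem40 at 0.77. Ear2 was closest to Hsd11b1 and Tmeff1, both at 0.13, and Sort1 at 0.19, with Ear6 at 0.28. Ear6 was closest to Asprv1 at 0.19 and to Hook1 and Gpr137b, both at 0.24. Siglecf was closest to Zfp966 at 0.09, Ltb at 0.15 and Selenop at 0.18. Between members, Prg2, Epx and Ear1 were thus nearer to one another than to Ear2 and Ear6, which formed the closest pair of all members, and these distances rest on 6 means and carry no test.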

How the data were processed

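Bulk RNA-seq of 24 libraries was analysed from 1 table that the authors deposited, whose values are TPM per gene symbol. Per the labels' protocols, 1 µg of total RNA per sample went into a stranded kit. Per the submitters' processing notes, STAR, edgeR and mm10 were used, without versions, and no source names the annotation, the counting or how TPM were computed. As TPM do not retain depth, counting errors are unknown. The 55401 rows gave 55291 symbols, after rows with the same symbol were summed.

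Values were taken as log2(TPM + 1) without rescaling. A gene was tested if 4 or more libraries had 1 TPM or above, which left 13246 genes and 7 of the 8 members. The model was limma 3.58.1 (R 4.3.3) on the means of 6 groups, leaving 18 residual degrees of freedom, and variances were moderated with the trend and robust options. Tests were two-sided, Benjamini-Hochberg adjusted over all genes tested and called at an adjusted p under 0.05; the fit was tested on simulated data. The members and gene lists were chosen with earlier results of these data known. Named genes were all members and, for each list and comparison, up to 4 called genes with the largest change and 1 TPM or more in the higher group. The likeness search used genes with 10 TPM or more in a group, without unnamed models and pseudogenes.

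Replicate numbers pair the untreated and LPS cultures of a mouse, taken from the design text on individual mice. The 12 same-number pairs deviated together with correlations of 0.0513 to 0.176, of which 10 were over 0.1. The library of the same number was the best match in 10 of the 12, and not for mice 3 and 4 of B6. The block for the mouse was an alternative to the unblocked fit. Other alternatives were the pseudocount, the filter, 3 scalings, the variance model, fewer samples, mice by number and leaving out each library. Transcript stretches and reading frames came from GENCODE M21 and upstream windows from RefSeq (GRCm38.p6), aligned with Biopython 1.88. A few values of other genes are not reported here.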

Additional observations from a re-analysis of the deposited data

Results flagged for a closer look

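Of 45 groups of 4 libraries examined for a library far from the others, 4 had one. The threshold is one that chance passes in about 1 in 20 groups. That rate does not hold for Ear10, at 0 in 20 of 24 libraries, where 1 library above 0 is flagged by construction. In LPS-treated B6 cells Epx stood at 0.599 TPM in mouse 3 and at 0.0871 to 0.175 TPM in the other mice. Ear10 stood at 0.319 TPM in mouse 1 of untreated B6 and at 0.282 TPM in mouse 1 of LPS-treated C57, and at 0 in the other mice of both groups. In untreated C57 cells Rnase2a stood at 49.8 TPM in mouse 2 and at 78.3 to 83 TPM in the others, and its untreated difference between C57 and B6 kept its call without that library.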

How the results depend on the processing

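The tests were repeated with 13 other settings and without each library in turn. Of the counts of calls, 404 stayed within 1.5 times the value given and 24 did not, and of the values of single members 1087 kept direction and call, 37 changed direction, 22 lost and 28 gained a call, and 59 without a test moved by more than the replicate spread. The cause of the changes below was not tested.

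The number of members called for LPS was 0 in B6 and 1 in C57 under quantile normalization, 1 in PWD under median-of-ratios scaling and with mice 1 and 2, and 4 in PWD with mice 3 and 4. With the mouse as replicate block it was 5, 5 and 4; a block on the number changed no call of a member between C57 and B6. Leaving out 1 library gave 2 to 4 members in B6 (4 without LPS-treated mouse 3) and 1 to 3 in PWD (1 without untreated mouse 4). Over all genes, mice 1 and 2 alone gave 5600 calls for LPS in PWD and 3393 for untreated C57 against B6. Interaction calls were 5642 for PWD against B6 without structural RNA, where 1 member (Ear6) was called. With mice 3 and 4, 1 member (Rnase2a) was, and with 1 library left out 0 to 1 (Ear6 without untreated PWD mouse 4). They were 3338 under median-of-ratios scaling, 4394 without structural RNA and 725 with mice 1 and 2 for C57 against B6. For PWD against C57 they were 2835, 2966 under quantile normalization, 2730 and 2378, the last with 1 member.

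Differences that were not called changed sign as follows. For LPS in B6, Prg2 was 0.32 under median-of-ratios scaling, 0.44 under quantile normalization and 0.02 with mice 3 and 4, Rnase2a 0.18 and 0.21 under the 2 scalings, and Epx -0.10 with mice 1 and 2. In C57 Prg2 was -0.05 with mice 1 and 2. In PWD Prg2 was 0.24 under median-of-ratios scaling and 0.02 with mice 1 and 2, Epx 0.25, 0.15 under quantile normalization and 0.05, and Ear1 0.36, 0.10 and 0.08, with 0.04 without structural RNA. For C57 against B6 Siglecf was -0.15, -0.19, -0.04 and -0.10 untreated under median-of-ratios, quantile, no structural RNA and mice 1 and 2, and -0.08, -0.19 and -0.02 with LPS under the first, second and last of these. Without 1 library, the LPS difference of Prg2 ran from -0.24 to 0.19 in B6, -0.29 to 0.48 in C57 and -0.38 to 0.14 in PWD, that of Epx from -0.05 to 0.14 in B6 and -0.28 to 0.03 in PWD, that of Ear1 in PWD from -0.10 to 0.12, and the untreated C57 minus B6 difference of Siglecf from -0.05 to 0.11.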
